A study of Homo sapiens with 15 samples.

Results

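The 37 genes of the human mitochondrial genome were described in SW480, a line from a human colon cancer that is labelled as intestinal epithelium. They were taken as every row of the deposited expression table whose symbol begins with MT-, and they numbered 37 of the 57905 genes listed. The 12 RNA sequencing libraries formed 4 groups of 3. PINT shRNA1+LPS cells stably carried a short hairpin RNA, delivered by lentivirus, against the long noncoding RNA PINT, and were exposed to lipopolysaccharide (LPS, the outer wall component of Gram-negative bacteria) at 1 µg/ml for 4 h. PINT shRNA1 cells carried the same hairpin without LPS, LPS cells were wild type with the same exposure, and Control cells were wild type in PBS for 4 h. No group is labelled as carrying a control hairpin, so the effect of this hairpin and that of any lentiviral hairpin cannot be told apart. Expression is given as FPKM, fragments mapped to a gene scaled by transcript length and by the mapped total of the library, as computed by the authors, and the read depth behind a value is unknown.

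The mitochondrial genome is a small circle that is copied and transcribed inside the organelle by its own nuclear-encoded RNA polymerase, POLRMT, with the factors TFAM and TFB2M. Each strand is read as a long transcript that is cut apart, mostly at the tRNAs that lie between the other genes, a layout known as tRNA punctuation. The products are the ribosomal RNAs of the mitochondrial ribosome, its tRNAs, and the mRNAs of core subunits of respiratory complexes I, III and IV and of the ATP synthase. Since the genes of a strand share their transcript, differences between their steady levels are generally thought to be set by cleavage and decay, apart from the ribosomal end of the circle, where a shorter transcript that stops inside MT-TL1 has also been described. The 37 genes comprised 13 protein genes (7 for complex I, 1 for complex III, 3 for complex IV and 2 for the ATP synthase), 2 rRNA genes and 22 tRNA genes. On the plus strand of the reference lie 28 of them, and on the minus strand 9, namely MT-ND6 and 8 tRNA genes.

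Junctions at which neighbouring members moved apart, or at which reads of 2 members cannot be separated, are shown as their reference sequences (GENCODE 29 transcripts, GRCh38 mitochondrial chromosome, plus strand, 5′ to 3′). The first set is the end of the large rRNA, the leucine tRNA that follows it, printed in capitals, and the start of MT-ND1, which begins 2 bases further on.
Last 30 bases of MT-RNR2: tatacccacacccacccaagaacagggttt
MT-TL1, all 75 bases: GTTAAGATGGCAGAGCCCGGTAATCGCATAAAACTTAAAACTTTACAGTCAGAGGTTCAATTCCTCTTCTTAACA
First 30 bases of MT-ND1: atacccatggccaacctcctactcctcatt
The next set shows genes that overlap, with the bases that belong to both in capitals (46 for the ATP synthase pair and 7 for the complex I pair) and 15 flanking bases on each side. Fragments that lie in a shared stretch belong to either gene.
MT-ATP8 into MT-ATP6: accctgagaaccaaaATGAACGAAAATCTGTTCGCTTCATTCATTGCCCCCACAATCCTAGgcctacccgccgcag
MT-ND4L into MT-ND4: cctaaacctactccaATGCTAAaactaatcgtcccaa

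The hairpin's target did not follow the labels. LINC-PINT was at 3.54 to 4.08 FPKM in PINT shRNA1+LPS libraries, against 1.91 to 2.82 FPKM in LPS libraries, and at 4.55 to 5.34 FPKM in PINT shRNA1 libraries, against 2.51 to 2.88 FPKM in Control libraries. The target was thus higher in both sets of hairpin libraries, and the group names below stand for libraries labelled PINT shRNA1 or PINT shRNA1+LPS, not for cells with less PINT. Markers of intestinal epithelium were present throughout, and their summed level over 6 genes was 1287 to 1353 FPKM in PINT shRNA1+LPS, against 2032 to 2078 FPKM in LPS, and 1230 to 1310 FPKM in PINT shRNA1, against 2058 to 2363 FPKM in Control. KRT8 and KRT18, epithelial keratins, made up most of that sum. EPCAM, on the same list, averaged 144 FPKM in PINT shRNA1+LPS, against 202 FPKM in LPS. Without LPS it averaged 143 FPKM in PINT shRNA1, against 205 FPKM in Control. VIL1, also on that list, averaged 3.68 FPKM in PINT shRNA1+LPS, against 9.92 FPKM in LPS. Without LPS it averaged 4.21 FPKM in PINT shRNA1, against 11.3 FPKM in Control. CDX2, an intestinal transcription factor on the same list, averaged 13.7 FPKM in PINT shRNA1+LPS, against 8.78 FPKM in LPS, and 13.4 FPKM in PINT shRNA1, against 10.2 FPKM in Control. CDH1, the epithelial cadherin, averaged 5.38 FPKM in PINT shRNA1+LPS, against 7.40 FPKM in LPS, and 6.35 FPKM in PINT shRNA1, against 6.48 FPKM in Control. Markers of leukocytes (4 genes), fibroblasts (4 genes) and endothelium (2 of 3 genes listed) summed to at most 4.41, 1.302 and 0.322 FPKM in any library. Depth relative to the first Control library was estimated from genes with low values. The estimate is the most frequent ratio of a gene's value in that library to its value in each library. It averaged 1.41 ± 0.105 in PINT shRNA1+LPS, against 0.852 ± 0.0059 in LPS, and 0.999 ± 0.074 in PINT shRNA1, against 0.890 ± 0.099 in Control (SD, n = 3 each). More genes were above 0 in hairpin libraries (30725 to 31961) than in the others (27078 to 28430). The part of marker levels and depth in the results that follow was not tested.

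Mitochondrial transcripts were among the most abundant in these cells. All 37 genes passed the filter used for testing (at least 0.5 FPKM in at least 3 libraries), and in Control cells 16 of the 20 most abundant genes were MT- genes. The 37 genes held 24.0% ± 0.684 of all FPKM in PINT shRNA1+LPS, against 25.1% ± 0.331 in LPS, and 23.3% ± 0.398 in PINT shRNA1, against 25.4% ± 0.553 in Control (SD, n = 3 each). Without LPS all 3 hairpin libraries lay below all 3 Control libraries, a difference of -2.04 percentage points (exact permutation test, two-sided, p = 0.1, the smallest that 3 libraries against 3 can give). With LPS the groups overlapped, at -1.11 points (exact permutation test, p = 0.2), and the library within the LPS range was PINT shRNA1+LPS replicate 3, in which MT-ATP6 stood far above its level elsewhere. Leaving MT-ATP6 out of the sum gave 23.1% ± 0.188 in PINT shRNA1+LPS, against 24.7% ± 0.330 in LPS, and 22.9% ± 0.395 in PINT shRNA1, against 24.9% ± 0.543 in Control. In these bulk libraries, fewer mitochondria or genome copies, less RNA from each and more RNA from nuclear genes cannot be told apart.

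**Figure D1:**
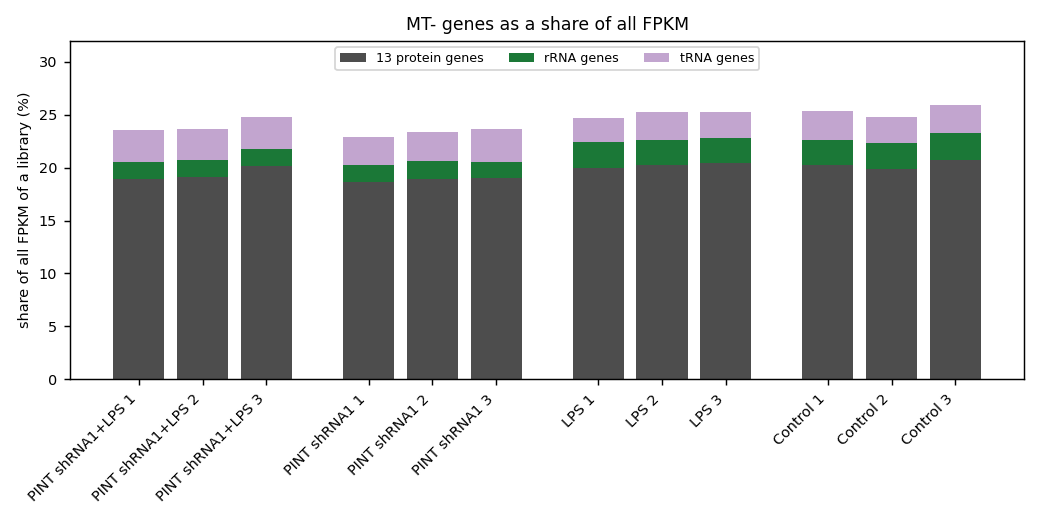
Share of all FPKM of a library (%, y axis) held by the 13 protein genes, the rRNA genes and the tRNA genes of the mitochondrial genome, stacked, for each of the 12 libraries by group and replicate (x axis). The rRNA segment is 1.56% to 1.74% in the 6 hairpin libraries, against 2.35% to 2.50% in the other 6, while the tRNA segment is 2.63% to 3.14% and 2.33% to 2.71%.

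The kinds of RNA within that share did not move alike. The rRNA genes held 1.63% ± 0.050 of all FPKM in PINT shRNA1+LPS, against 2.39% ± 0.026 in LPS, and 1.63% ± 0.097 in PINT shRNA1, against 2.41% ± 0.080 in Control. The protein genes held 19.4% ± 0.675 in PINT shRNA1+LPS, against 20.2% ± 0.236 in LPS, and 18.9% ± 0.159 in PINT shRNA1, against 20.3% ± 0.436 in Control. The tRNA genes held 2.98% ± 0.063 in PINT shRNA1+LPS, against 2.49% ± 0.176 in LPS, and 2.83% ± 0.274 in PINT shRNA1, against 2.63% ± 0.089 in Control. The rRNA share was therefore lower in every hairpin library than in every library without a hairpin, whereas the tRNA share was higher in every PINT shRNA1+LPS library (2.91% to 3.03%) than in every LPS library (2.33% to 2.68%) and overlapped between PINT shRNA1 and Control.

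Single genes were compared on log2(FPKM + 0.5) with limma, in a fit of all 12 libraries, with calls made below 0.05 after adjustment over all 17214 genes tested. Of the 37 MT- genes, 21 were called in PINT shRNA1+LPS against LPS, 11 higher and 10 lower, where 29.2% of all tested genes were called (17.7% higher and 11.6% lower). In PINT shRNA1 against Control 18 were called, 7 higher and 11 lower, where 27.3% of all tested genes were called (16.9% higher and 10.3% lower). Median scaling gave 7 higher and 12 lower with LPS and 6 higher and 13 lower without, and quantile normalization 11 higher and 5 lower with LPS and 7 higher and 6 lower without. The median log2 fold change of the 37 genes was 0.090 with LPS and -0.031 without, against 0.053 and 0.057 over all tested genes. With LPS the groups did not overlap for 26 MT- genes (14 above and 12 below), against 45.7% of all tested genes, and without LPS for 20 (7 above and 13 below), against 41.3%.

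The hairpin comparisons with and without LPS share no library in their means. The spread of each gene was estimated from all 12 libraries, so their calls are not independent. In both comparisons 15 genes were called, each in the same direction. Those higher in both were MT-TV, MT-TL1, MT-ND1, MT-TM, MT-TS1 and MT-TK, and those lower in both were MT-RNR1, MT-RNR2, MT-ND2, MT-CO1, MT-CO2, MT-CO3, MT-ND5, MT-ND6 and MT-TP. A further 6 were called only with LPS (MT-TF, MT-TY, MT-TD, MT-ATP8, MT-TR and MT-TH), 3 only without it (MT-ND3, MT-TL2 and MT-CYB), and 13 in neither. The test of the difference between the comparisons, the interaction given below, called none of the 37. Across the 37 genes, which share transcripts and libraries and are no replicates, the log2 fold changes of the 2 comparisons had the same sign for 32 and a Pearson correlation of 0.896 (Spearman 0.859), or 0.935 over the 36 genes without MT-ATP6. Shared calls and correlations over all tested genes are not given here, so this agreement cannot be read as particular to the MT- genes. When each library was left out in turn, 14 of the 21 calls with LPS and 11 of the 18 without it stood in every fit. Of the alternatives that kept all libraries, at least 1 ended the calls with LPS of MT-TF, MT-RNR1, MT-ND1, MT-ND2, MT-TY, MT-CO1, MT-ATP8, MT-CO3, MT-TR and MT-TH, and those without LPS of MT-ND1, MT-ND2, MT-CO1, MT-TS1, MT-TK, MT-CO3, MT-ND3, MT-TL2, MT-ND6 and MT-CYB. The 10 genes whose calls stood in every leave-one-out fit of both comparisons were MT-RNR2, MT-TL1, MT-ND1, MT-TV, MT-TM, MT-CO1, MT-CO2, MT-ND5, MT-ND6 and MT-TP.

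**Figure D2:**
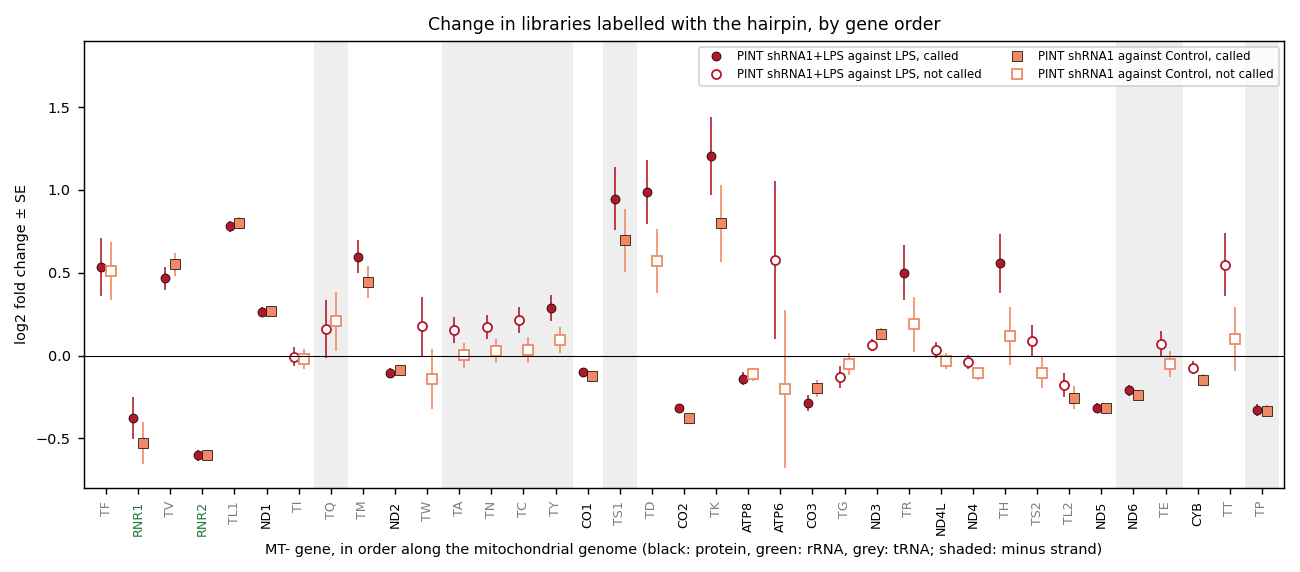
Log2 fold change on the log2(FPKM + 0.5) scale with its standard error (y axis) for the 37 MT- genes in their order along the mitochondrial genome (x axis), for PINT shRNA1+LPS against LPS (circles) and PINT shRNA1 against Control (squares), with called genes filled and minus-strand genes shaded. MT-RNR2 at -0.60 in both comparisons stands beside MT-TL1 at 0.78 with LPS and 0.80 without, and MT-CO2 at -0.32 and -0.38 stands between MT-TD and MT-TK, while quantile normalization reverses MT-ND1 and a few other protein genes.

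The rRNAs of the mitochondrial ribosome had lower FPKM in hairpin libraries. The part that RNA selection before sequencing had in rRNA and tRNA values was not tested. MT-RNR2 had 5612, 5841 and 5875 FPKM in PINT shRNA1+LPS libraries, against 8728, 8873 and 8690.4 FPKM in LPS libraries. Without LPS it had 5739.5, 6024 and 5685 FPKM in PINT shRNA1 libraries, against 8604, 8754 and 9100.3 FPKM in Control libraries. MT-RNR2 encodes the 16S rRNA of the large subunit, and its 6 values in hairpin libraries were all below the 6 without a hairpin. The log2 fold change of MT-RNR2 was -0.60 ± 0.032 (adjusted p = 5.25e-07) with LPS and -0.60 ± 0.032 (adjusted p = 6.00e-07) without, which is 34.1% less mean FPKM in each (limma, Benjamini-Hochberg). MT-RNR1 had 904, 1041 and 908 FPKM in PINT shRNA1+LPS libraries, against 1338, 1164 and 1206 FPKM in LPS libraries. In unstimulated cells it had 766, 1127 and 849 FPKM in PINT shRNA1 libraries, against 1202, 1257 and 1448 FPKM in Control libraries. MT-RNR1, the 12S rRNA of the small subunit, was also below in every hairpin library, with a wide scatter in PINT shRNA1. On the log2 scale MT-RNR1 differed by -0.38 ± 0.13 (adjusted p = 0.0458) with LPS and -0.53 ± 0.13 (adjusted p = 0.0112) without. With libraries named by group and replicate, the call with LPS was lost when LPS 1, LPS 2, LPS 3, PINT shRNA1+LPS 1 or PINT shRNA1+LPS 3 was left out (adjusted p = 0.0627 to 0.134), and that without LPS stood in each such fit. The ratio of MT-RNR2 to MT-RNR1, in FPKM, was 6.10 ± 0.44 in PINT shRNA1+LPS, against 7.12 ± 0.56 in LPS, and 6.51 ± 1.1 in PINT shRNA1, against 6.80 ± 0.46 in Control. Its ranges did not overlap with LPS, at 5.61 to 6.47 in PINT shRNA1+LPS, against 6.52 to 7.62 in LPS, and overlapped without it.

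Directly downstream the direction turned. MT-TL1 had 1179, 1217 and 1231 FPKM in PINT shRNA1+LPS libraries, against 719.7, 677 and 715 FPKM in LPS libraries. Without the stimulus it was at 1169, 1180.4 and 1195 FPKM in PINT shRNA1 libraries, against 660.5, 671 and 704 FPKM in Control libraries. MT-TL1 encodes the tRNA for leucine that reads UUR codons, and none of its hairpin values was near a value without the hairpin. For MT-TL1 the log2 fold change came to 0.78 ± 0.034 (adjusted p = 1.04e-07) with LPS and 0.80 ± 0.034 (adjusted p = 9.78e-08) without. MT-ND1 had 4534, 4635 and 4743 FPKM in PINT shRNA1+LPS libraries, against 3905, 3787 and 3893 FPKM in LPS libraries. In cells without LPS it had 4547, 4712 and 4451 FPKM in PINT shRNA1 libraries, against 3777, 3744 and 3840.4 FPKM in Control libraries. MT-ND1, a membrane subunit of complex I, was again above in every hairpin library. The fitted log2 difference of MT-ND1 was 0.26 ± 0.029 (adjusted p = 9.76e-05) with LPS and 0.27 ± 0.029 (adjusted p = 9.11e-05) without, a direction that quantile normalization reversed, to -0.15 with LPS and -0.075 without. Quantile normalization gives every library the same value at each rank, so a gene's value after it changes only with its rank. The levels of neighbours within a library do not depend on scaling by a common factor, and the ratio of MT-TL1 to MT-RNR2, in FPKM, was 0.209 ± 0.00089 in PINT shRNA1+LPS, against 0.0803 ± 0.0035 in LPS, and 0.203 ± 0.0072 in PINT shRNA1, against 0.0769 ± 0.00037 in Control. The ratio of MT-ND1 to MT-RNR2 was 0.803 ± 0.0081 in PINT shRNA1+LPS, against 0.441 ± 0.012 in LPS, and 0.786 ± 0.0056 in PINT shRNA1, against 0.430 ± 0.0087 in Control. These ratios were chosen after the values were seen and carry no test. MT-TL1 also moved against MT-ND1, with a ratio of 0.261 ± 0.0017 in PINT shRNA1+LPS, against 0.182 ± 0.003 in LPS, and 0.259 ± 0.0091 in PINT shRNA1, against 0.179 ± 0.0042 in Control.

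**Figure D3:**
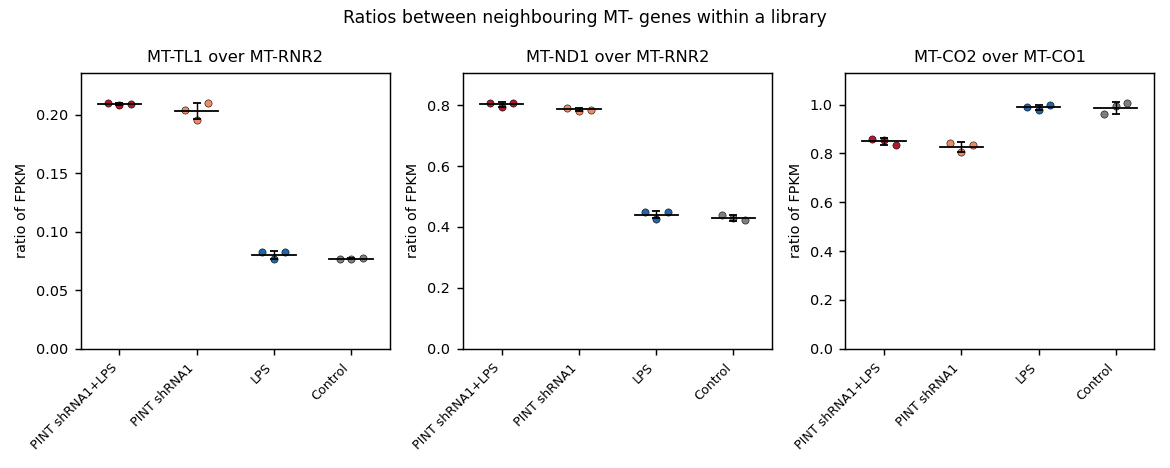
Ratio of FPKM between neighbouring MT- genes in each library (y axis, from 0), for PINT shRNA1+LPS, PINT shRNA1, LPS and Control (x axis), with 3 libraries as points and mean ± SD as lines. MT-TL1 over MT-RNR2 averages 0.209 and 0.203 in the hairpin groups, against 0.0803 in LPS and 0.0769 in Control, and MT-CO2 over MT-CO1 averages 0.850 and 0.827, against 0.988 and 0.987.

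Of the 7 complex I genes, 4 were called with LPS (1 higher and 3 lower) and 5 without (2 higher and 3 lower), where 29.2% and 27.3% of all tested genes were called. MT-ND5 had 2368, 2398 and 2406 FPKM in PINT shRNA1+LPS libraries, against 2865, 3032 and 3023 FPKM in LPS libraries. Without LPS it had 2417, 2407 and 2401 FPKM in PINT shRNA1 libraries, against 2960.2, 2971 and 3079.7 FPKM in Control libraries. MT-ND5 encodes a proton-pumping membrane subunit, and its hairpin values lay close together and below all the others. The log2 fold change of MT-ND5 was -0.31 ± 0.029 (adjusted p = 2.48e-05) with LPS and -0.32 ± 0.029 (adjusted p = 2.57e-05) without. MT-ND6 had 1919, 1887 and 1923 FPKM in PINT shRNA1+LPS libraries, against 2147, 2234 and 2248 FPKM in LPS libraries. In unstimulated cells it had 1800.3, 1909.8 and 1929.6 FPKM in PINT shRNA1 libraries, against 2190.0, 2172 and 2301 FPKM in Control libraries. MT-ND6 is the one protein gene of the minus strand, and it too was below in every hairpin library. On the log2 scale MT-ND6 differed by -0.21 ± 0.035 (adjusted p = 0.00121) with LPS and -0.24 ± 0.035 (adjusted p = 6.06e-04) without. MT-ND5 and MT-ND6 lie back to back on opposite strands, and whether the counting used strand is not given in the sources used here, so antisense RNA at either gene cannot be separated.

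The other complex I genes moved less. MT-ND2 averaged 4718 ± 37.0 FPKM in PINT shRNA1+LPS, against 5069.5 ± 65.9 FPKM in LPS (SD, n = 3 each). Without LPS it averaged 4749 ± 114 FPKM in PINT shRNA1, against 5036 ± 137 FPKM in Control. For MT-ND2 the log2 fold change came to -0.10 ± 0.028 (adjusted p = 0.0186) with LPS and -0.085 ± 0.028 (adjusted p = 0.0467) without, and quantile normalization turned the value without LPS to 0.038. The MT-ND2 call with LPS was lost without LPS 3, PINT shRNA1+LPS 1 or PINT shRNA1+LPS 2 (adjusted p = 0.0538 to 0.0607), and that without LPS was lost without Control 1, Control 2, Control 3, PINT shRNA1 1 or PINT shRNA1 3 (adjusted p = 0.0549 to 0.152). MT-ND3 averaged 2809.8 ± 118 FPKM in PINT shRNA1+LPS, against 2684 ± 55.6 FPKM in LPS (SD, n = 3 each). In unstimulated cells it averaged 2992 ± 71.8 FPKM in PINT shRNA1, against 2735 ± 90.8 FPKM in Control. MT-ND3, a small membrane subunit, was called only without LPS, at 0.13 ± 0.037 (adjusted p = 0.0257), and at 0.065 ± 0.037 (adjusted p = 0.221) with LPS it did not pass. That call was lost without Control 2 or PINT shRNA1 3 (adjusted p = 0.0835 to 0.0919). MT-ND4L averaged 7849.9 ± 144 FPKM in PINT shRNA1+LPS, against 7679 ± 178 FPKM in LPS (SD, n = 3 each). Without the stimulus its mean was 7544 ± 549 FPKM in PINT shRNA1, against 7699 ± 274 FPKM in Control. MT-ND4 averaged 8866 ± 238 FPKM in PINT shRNA1+LPS, against 9107 ± 154 FPKM in LPS (SD, n = 3 each). In cells without LPS its mean was 8498 ± 445 FPKM in PINT shRNA1, against 9146 ± 317 FPKM in Control. Neither MT-ND4L nor MT-ND4, which share a single transcript and the 7 bases shown above, passed in either comparison. Their log2 fold changes were 0.032 ± 0.048 (adjusted p = 0.661) with LPS and -0.031 ± 0.048 (adjusted p = 0.673) without for MT-ND4L, and -0.039 ± 0.041 (adjusted p = 0.519) with LPS and -0.11 ± 0.041 (adjusted p = 0.0757) without for MT-ND4. MT-ND4 was called lower, at -0.15 (adjusted p = 0.0145), once PINT shRNA1 replicate 3 was left out. Quantile normalization called both genes higher, at 0.29 and 0.13 without LPS and 0.31 and 0.14 with it.

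The 3 genes of complex IV, cytochrome c oxidase, were called lower in both comparisons, as were the 2 rRNA genes. Of all tested genes, 11.6% were called lower with LPS and 10.3% without. Quantile normalization turned MT-CO1 and MT-CO3 to 0.023 and 0.0088 without LPS and ended the calls of these 2 genes with LPS. MT-CO2 had 8028, 7978 and 7902 FPKM in PINT shRNA1+LPS libraries, against 9914, 10007 and 9907 FPKM in LPS libraries. Without the stimulus it was at 7836, 7615 and 7945 FPKM in PINT shRNA1 libraries, against 10028, 10052 and 10292 FPKM in Control libraries. MT-CO2 carries the copper centre that takes electrons from cytochrome c, and its hairpin values all lay below the others, with a wide gap between them. The fitted log2 difference of MT-CO2 was -0.32 ± 0.024 (adjusted p = 6.63e-06) with LPS and -0.38 ± 0.024 (adjusted p = 2.34e-06) without. MT-CO1 averaged 9379 ± 87.2 FPKM in PINT shRNA1+LPS, against 10064 ± 148 FPKM in LPS (SD, n = 3 each). Without LPS it averaged 9433 ± 124 FPKM in PINT shRNA1, against 10262 ± 162 FPKM in Control. MT-CO1, the catalytic subunit, had a log2 fold change of -0.10 ± 0.024 (adjusted p = 0.00913) with LPS and -0.12 ± 0.024 (adjusted p = 0.00391) without. MT-CO3 averaged 7504 ± 551 FPKM in PINT shRNA1+LPS, against 9142 ± 85.5 FPKM in LPS (SD, n = 3 each). In unstimulated cells it averaged 7888 ± 293 FPKM in PINT shRNA1, against 9042 ± 294 FPKM in Control. MT-CO3, a structural subunit, had a log2 fold change of -0.29 ± 0.05 (adjusted p = 0.0016) with LPS and -0.20 ± 0.05 (adjusted p = 0.0142) without, or -0.14 with LPS after quantile normalization, and its call without LPS was lost without Control 3 or PINT shRNA1 3 (adjusted p = 0.0507 to 0.0522). MT-CO2 moved more than its neighbour MT-CO1, and their ratio was 0.850 ± 0.014 in PINT shRNA1+LPS, against 0.988 ± 0.0093 in LPS, and 0.827 ± 0.021 in PINT shRNA1, against 0.987 ± 0.024 in Control. Complex III has 1 mitochondrial gene, MT-CYB, the cytochrome b that passes electrons across the membrane. MT-CYB averaged 5052 ± 9.61 FPKM in PINT shRNA1+LPS, against 5315 ± 79.2 FPKM in LPS (SD, n = 3 each). Without the stimulus its mean was 4867 ± 299 FPKM in PINT shRNA1, against 5388 ± 90.5 FPKM in Control. The log2 fold change of MT-CYB was -0.073 ± 0.039 (adjusted p = 0.184) with LPS and -0.15 ± 0.039 (adjusted p = 0.0159) without, and the call without LPS was lost without Control 3, PINT shRNA1 1 or PINT shRNA1 2 (adjusted p = 0.0521 to 0.0584).

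The ATP synthase genes MT-ATP8 and MT-ATP6 share a bicistronic mRNA that borders on MT-CO3. MT-ATP8 averaged 13529 ± 492 FPKM in PINT shRNA1+LPS, against 14901 ± 526 FPKM in LPS (SD, n = 3 each). In cells without LPS its mean was 13822 ± 171 FPKM in PINT shRNA1, against 14965 ± 646 FPKM in Control. MT-ATP8, at the highest FPKM of the 13 protein genes in each group and with the shortest of their lengths, had a log2 fold change of -0.14 ± 0.04 (adjusted p = 0.0224) with LPS and -0.11 ± 0.04 (adjusted p = 0.0552) without. The call with LPS was lost without LPS 2, LPS 3 or PINT shRNA1+LPS 1 (adjusted p = 0.065 to 0.0915). MT-ATP6 had 1555, 1489.6 and 7731 FPKM in PINT shRNA1+LPS libraries, against 1744, 1712 and 1804 FPKM in LPS libraries. In cells without LPS it had 1489, 1629 and 1513 FPKM in PINT shRNA1 libraries, against 1711, 1759.6 and 1850.2 FPKM in Control libraries. MT-ATP6 encodes the membrane subunit that forms the proton path, and it lay between 1489 and 1850.2 FPKM in 11 libraries but at 7731 FPKM in PINT shRNA1+LPS replicate 3. No other gene above 200 FPKM in that group was over 2-fold in that library from the mean of the other libraries, and MT-CO3 was at 6870.3 FPKM there, against 7765 and 7876 FPKM in the same group's other libraries. With all libraries the log2 fold change of MT-ATP6 was 0.58 ± 0.48 (adjusted p = 0.406) with LPS and -0.20 ± 0.48 (adjusted p = 0.795) without, and without that library it was -0.20 (adjusted p = 0.0143) with LPS. MTATP6P1, a nuclear copy on chromosome 1, held 1346 to 1473 FPKM in PINT shRNA1+LPS libraries, against 1578 to 1636 FPKM in LPS, and 1409.6 to 1474 FPKM in PINT shRNA1, against 1559.5 to 1712 FPKM in Control, with no jump in the library in which MT-ATP6 had one.

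**Figure D4:**
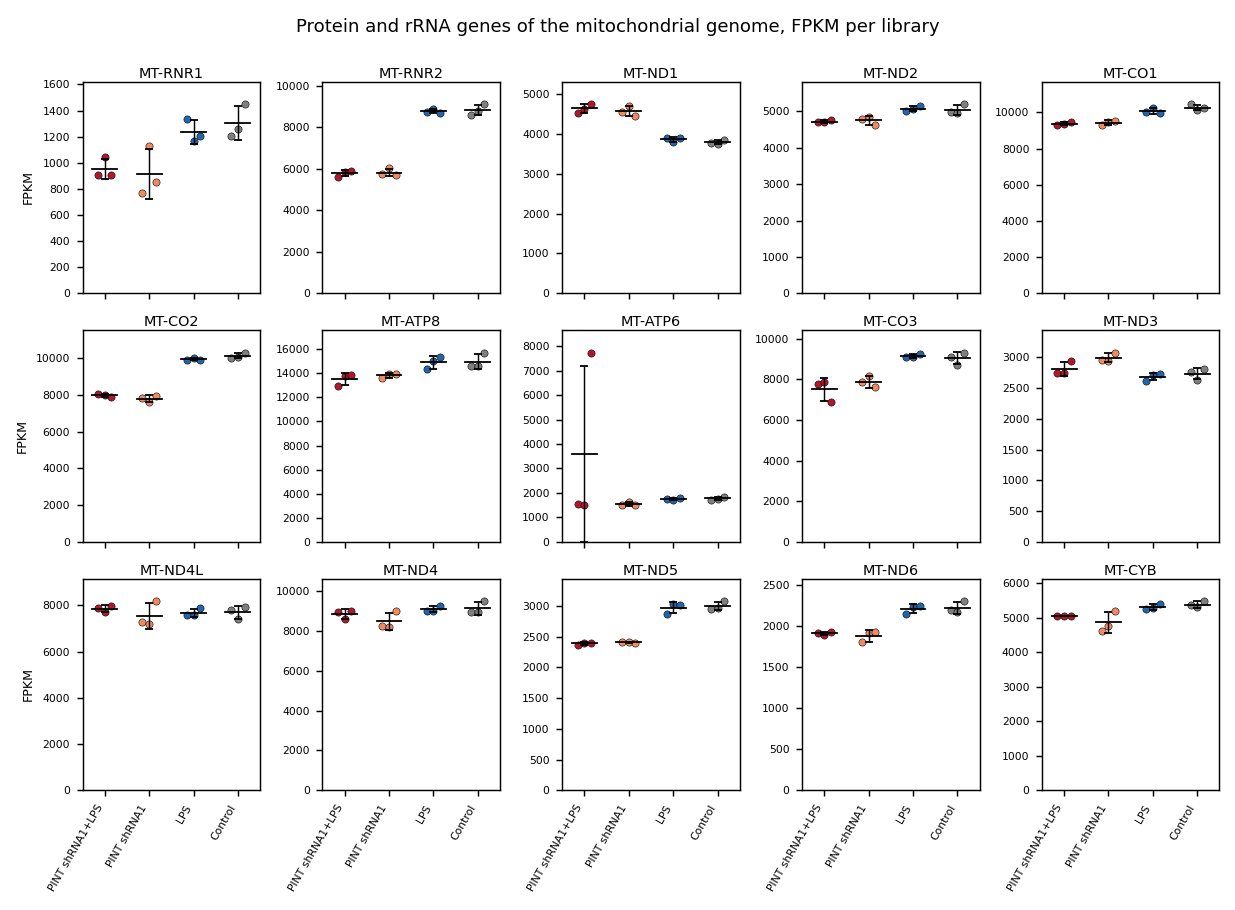
FPKM (y axes, from 0, 1 scale per panel) of the 13 protein genes and the rRNA genes of the mitochondrial genome in each of the 12 libraries, by group (x axis), with libraries as points and mean ± SD as lines. MT-RNR2, MT-CO2 and MT-ND5 are lower and MT-ND1 is higher in all 6 hairpin libraries on the deposited scale (quantile normalization reverses MT-ND1), and MT-ATP6 has a single point at 7731 FPKM in PINT shRNA1+LPS.

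The tRNA genes had the widest spread of levels and most of the genes that were higher. Their group means ran in Control from 6.72 FPKM for MT-TS1 to 1880.3 FPKM for MT-TC, and in PINT shRNA1+LPS from 13.7 FPKM for MT-TS1 to 2004 FPKM for MT-TC. The genes are 59 to 75 bases long, shorter than the fragments of most RNA libraries, and FPKM over so short a stretch does not separate mature tRNA from precursor RNA. With LPS 10 of the 22 were called higher and 1 lower (50% called), against 17.7% and 11.6% of all tested genes (29.2% called). Without LPS 5 were higher and 2 lower (31.8% called), near the share of all tested genes (27.3% called, 16.9% higher and 10.3% lower). The 14 plus-strand tRNA genes gave 8 higher and 0 lower with LPS and 4 higher and 1 lower without (57.1% and 35.7% called). The 8 minus-strand ones gave 2 higher and 1 lower with LPS and 1 and 1 without (37.5% and 25% called).

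Of the tRNAs higher in both comparisons besides MT-TL1, MT-TV and MT-TM had the smallest standard errors. MT-TV had 63.9, 77.3 and 67.8 FPKM in PINT shRNA1+LPS libraries, against 49.0, 52.4 and 49.1 FPKM in LPS libraries. Without LPS it had 72.1, 68.1 and 69.1 FPKM in PINT shRNA1 libraries, against 44.5, 50.8 and 47.2 FPKM in Control libraries. MT-TV, the valine tRNA between the rRNA genes, which is built into the mitochondrial ribosome in humans, was above in every hairpin library while both its neighbours were below. On the log2 scale MT-TV differed by 0.47 ± 0.07 (adjusted p = 6.49e-04) with LPS and 0.55 ± 0.07 (adjusted p = 2.59e-04) without. MT-TM averaged 40.6 ± 1.27 FPKM in PINT shRNA1+LPS, against 27.0 ± 4.88 FPKM in LPS (SD, n = 3 each). Without LPS it averaged 39.6 ± 1.08 FPKM in PINT shRNA1, against 28.97 ± 0.115 FPKM in Control. MT-TM, the methionine tRNA used for both initiation and elongation, had a log2 fold change of 0.60 ± 0.10 (adjusted p = 0.00108) with LPS and 0.44 ± 0.10 (adjusted p = 0.00664) without. In the stretch between MT-CO1 and MT-ATP8 all 3 tRNA genes were called with LPS. MT-TK had 106, 116 and 112 FPKM in PINT shRNA1+LPS libraries, against 43.9, 41.9 and 59.9 FPKM in LPS libraries. In unstimulated cells it had 54.3, 81.2 and 116 FPKM in PINT shRNA1 libraries, against 39.1, 44.3 and 55.3 FPKM in Control libraries. MT-TK, the lysine tRNA, was above in all PINT shRNA1+LPS libraries, and overlapped between PINT shRNA1 and Control. For MT-TK the log2 fold change came to 1.20 ± 0.23 (adjusted p = 0.00315) with LPS and 0.80 ± 0.23 (adjusted p = 0.0282) without, and the call without LPS was lost without Control 1, Control 2, PINT shRNA1 2 or PINT shRNA1 3 (adjusted p = 0.0693 to 0.0906). MT-TS1 averaged 13.7 ± 1.32 FPKM in PINT shRNA1+LPS, against 6.87 ± 0.960 FPKM in LPS (SD, n = 3 each). In unstimulated cells it averaged 11.5 ± 3.78 FPKM in PINT shRNA1, against 6.72 ± 1.03 FPKM in Control. MT-TS1, the UCN serine tRNA, had a log2 fold change of 0.95 ± 0.19 (adjusted p = 0.00388) with LPS and 0.70 ± 0.19 (adjusted p = 0.0209) without, and its call without LPS was lost without Control 1 (adjusted p = 0.073). MT-TD averaged 54.9 ± 2.88 FPKM in PINT shRNA1+LPS, against 27.6 ± 3.91 FPKM in LPS (SD, n = 3 each). Without the stimulus its mean was 45.2 ± 13.8 FPKM in PINT shRNA1, against 29.7 ± 5.23 FPKM in Control. MT-TD, the aspartate tRNA, had a log2 fold change of 0.99 ± 0.19 (adjusted p = 0.00332) with LPS and 0.57 ± 0.19 (adjusted p = 0.0509) without. MT-TD and MT-TK directly flank MT-CO2, which was lower in the same libraries.

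MT-TP had 239.6, 229 and 231 FPKM in PINT shRNA1+LPS libraries, against 289, 289 and 300.2 FPKM in LPS libraries. Without the stimulus it was at 240.1, 227 and 239.6 FPKM in PINT shRNA1 libraries, against 299, 288 and 304 FPKM in Control libraries. MT-TP, the proline tRNA of the minus strand next to the control region, was below in every hairpin library. The fitted log2 difference of MT-TP was -0.33 ± 0.035 (adjusted p = 7.99e-05) with LPS and -0.33 ± 0.035 (adjusted p = 7.90e-05) without. MT-TL2 averaged 657 ± 17.5 FPKM in PINT shRNA1+LPS, against 746 ± 81.1 FPKM in LPS (SD, n = 3 each). In cells without LPS its mean was 678 ± 38.5 FPKM in PINT shRNA1, against 808 ± 29.7 FPKM in Control. MT-TL2, the CUN leucine tRNA, had a log2 fold change of -0.18 ± 0.071 (adjusted p = 0.0843) with LPS and -0.25 ± 0.071 (adjusted p = 0.0218) without, and the call without LPS was lost without Control 1, Control 3 or PINT shRNA1 2 (adjusted p = 0.0619 to 0.0785). MT-TF, MT-TY, MT-TR and MT-TH, for phenylalanine, tyrosine, arginine and histidine, were called higher with LPS only, at 0.53 ± 0.17 (adjusted p = 0.0405), 0.29 ± 0.08 (adjusted p = 0.0207), 0.50 ± 0.17 (adjusted p = 0.0434) and 0.56 ± 0.18 (adjusted p = 0.0362). Of the 6 fits that left out a library, 4 or 5 lost each of these calls, with adjusted p up to 0.138 for MT-TF, 0.0719 for MT-TY, 0.132 for MT-TR and 0.113 for MT-TH. The minus-strand cluster MT-TA, MT-TN, MT-TC and MT-TY, next to the origin of light-strand replication, included MT-TC, MT-TN and MT-TY, the tRNA genes with the highest FPKM in each group, and MT-TN was at 1864 ± 35.7 FPKM in PINT shRNA1+LPS, against 1659.8 ± 171 FPKM in LPS, and 1811 ± 159 FPKM in PINT shRNA1, against 1775 ± 81.8 FPKM in Control. MT-TA, MT-TN and MT-TC were called in neither comparison, at log2 fold changes of 0.16, 0.17 and 0.21 with LPS and 0.00040, 0.027 and 0.034 without. The remaining 6 tRNA genes that were called in neither, MT-TI, MT-TQ, MT-TW, MT-TG, MT-TS2 and MT-TE, lay between -0.14 and 0.21 in both, and MT-TT at 0.55 ± 0.19 (adjusted p = 0.0529) with LPS and 0.10 ± 0.19 (adjusted p = 0.742) without. Some tRNA genes passed when 1 library was left out. With LPS these were MT-TG without LPS 1 (-0.20, adjusted p = 0.0429), MT-TL2 without LPS 1 (-0.26, adjusted p = 0.00721), MT-TA without LPS 2 (0.25, adjusted p = 0.0121), MT-TN without LPS 2 (0.26, adjusted p = 0.0171), MT-TC without LPS 2 (0.28, adjusted p = 0.0261). In the comparison of unstimulated cells they were MT-TD without Control 2 (0.68, adjusted p = 0.0473), MT-TF without Control 3 (0.65, adjusted p = 0.0255), MT-TD without PINT shRNA1 1 (0.76, adjusted p = 0.0162).

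**Figure D5:**
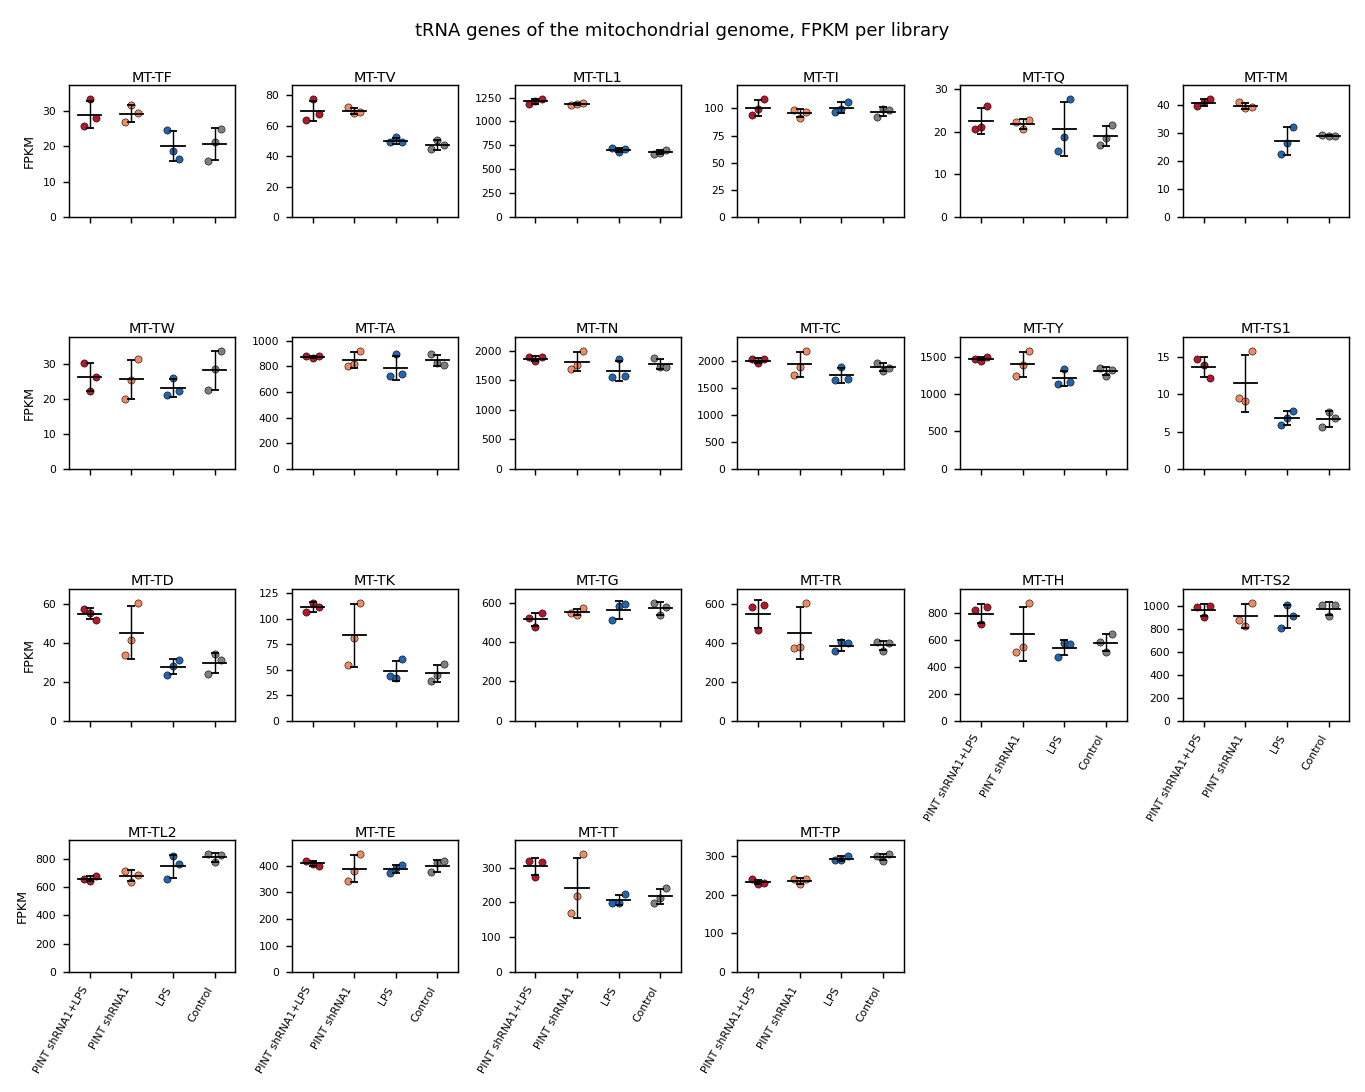
FPKM (y axes, 1 scale per panel) of the 22 mitochondrial tRNA genes in each of the 12 libraries, by group (x axis), with libraries as points and mean ± SD as lines. MT-TL1 is separated between hairpin and other libraries, and for MT-TK, MT-TS1, MT-TD, MT-TR, MT-TH and MT-TT the highest of the 3 PINT shRNA1 points is replicate 3.

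PINT shRNA1 replicate 3 stood apart from replicates 1 and 2 in the tRNA genes. It was above both for 16 of the 22 tRNA genes, and for 6 (MT-TS1, MT-TD, MT-TK, MT-TR, MT-TH and MT-TT) it was 1.61 to 1.73 times their mean, while the median over all 37 MT- genes was 1.04 and over all tested genes 0.9997. MT-TH had 510.1, 553 and 880.3 FPKM in PINT shRNA1 replicates 1, 2 and 3, against 586, 515 and 645 FPKM in Control, and 826, 722 and 851 FPKM in PINT shRNA1+LPS, against 479, 580.4 and 575 FPKM in LPS. For each of these 6 genes, which were picked by their values, replicate 3 was above all 3 PINT shRNA1+LPS libraries. Without replicate 3, 15 MT- genes were called in PINT shRNA1 against Control, 5 higher and 10 lower. Without PINT shRNA1+LPS replicate 3, 17 were called against LPS, 7 higher and 10 lower. Each of the 3 PINT shRNA1 RNAs has 2 samples in the labels and 1 column in the table, and whether a column holds 1 sample or both is not recorded.

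LPS itself moved no MT- gene past the threshold. In LPS against Control 0 of 37 were called by limma (0 also at an unadjusted p under 0.05), where 2.76% of all tested genes were called (1.57% higher and 1.19% lower). The log2 fold changes ran from -0.27 for MT-TW to 0.082 for MT-TQ, with a smallest adjusted p of 0.427. For the 13 protein genes the range was -0.028 to 0.028 with standard errors of 0.024 to 0.050 apart from MT-ATP6, whose standard error was 0.48. No MT- gene was above and 1 was below in all 3 LPS libraries, MT-CO2, against 19.2% of all tested genes whose groups did not overlap (7.22% above and 11.9% below). In PINT shRNA1+LPS against PINT shRNA1 0 of 37 were called, where 0.186% of all tested genes were (0.163% higher and 0.0232% lower), and 1 gene, MT-ND3, was under 0.05 unadjusted, at a log2 fold change of -0.091 and an adjusted p of 0.515. The largest value there, 0.76 ± 0.48 for MT-ATP6, rests on the single library named above. MT-ND3 was the 1 MT- gene whose groups did not overlap, lower in all 3 PINT shRNA1+LPS libraries, against 19.3% of all tested genes whose groups did not overlap (6.08% above and 13.2% below). The interaction, the LPS response in hairpin cells less that in wild-type cells, called 0 of 37 (0 at an unadjusted p under 0.05), where 0.128% of all tested genes were called (0.0349% higher and 0.0929% lower), with a smallest adjusted p of 0.713. MT-TK had 0.41 ± 0.33 (adjusted p = 0.812) and MT-RNR2 -0.00095 ± 0.046 (adjusted p = 0.997). The share of all FPKM in MT- genes differed by -0.254 points in LPS against Control (exact permutation test, p = 0.4) and by 0.673 points in PINT shRNA1+LPS against PINT shRNA1 (exact permutation test, p = 0.3).

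Copies of mitochondrial sequence in the nuclear genome can draw reads from the genes above. By listed symbol there were 188 such copies, of which 75 were above 0 in some library and 11 passed the filter. Matching by gene ID as well gave 403 copies, of which 20 passed. MTATP6P1, with FPKM close to those of MT-ATP6 in the 11 libraries without its jump, and MTND2P28, at 619 to 823 FPKM over the 12 libraries, were the most abundant, and MTCO1P12, which the table lists under a microRNA symbol and which was matched by its gene ID, was at 250.0 to 297 FPKM and MTND1P23 at 24.6 to 39.4 FPKM. In limma MTATP6P1 had log2 fold changes of -0.19 (adjusted p = 0.00697) with LPS and -0.16 (adjusted p = 0.0195) without. MTND2P28 had -0.20 (adjusted p = 0.0168) with LPS and -0.085 (adjusted p = 0.282) without. MTND1P23 had 0.17 (adjusted p = 0.239) with LPS and 0.37 (adjusted p = 0.0218) without. MTCO1P12 had -0.032 (adjusted p = 0.661) with LPS and -0.0065 (adjusted p = 0.894) without. How reads that fit several places were counted is not given in the sources used here, so the levels of MT-ATP6, MT-ND2, MT-CO1 and MT-ND1 are uncertain. Copies listed under a symbol of the form of MTND2P28 had their FPKM added to their MT- gene, which left 21 MT- genes called with LPS and 18 without. Copies with symbols of another form, such as MTRNR2L, were not added. Nor were MTCO1P12 and the other copies matched only by gene ID, so this check does not cover any of these.

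Nuclear genes that act on mitochondrial RNA were counted on lists of 126 genes, of which 125 were tested, and which were chosen by role. Over all lists 16 were higher and 11 lower in PINT shRNA1+LPS against LPS. Of all tested genes, 17.7% were higher and 11.6% lower there (29.2% called). In PINT shRNA1 against Control 20 were higher and 7 lower, where 16.9% of all tested genes were higher and 10.3% lower (27.3% called). The counts of the single lists below stand beside the same shares. Of 9 transcription genes 1 was higher and 2 lower with LPS, and 2 were higher and 1 lower without. TFAM, which packages the genome and opens its promoters, was at 30.4 FPKM in PINT shRNA1+LPS, against 34.6 FPKM in LPS, and at 30.1 FPKM in PINT shRNA1, against 34.2 FPKM in Control. Its log2 fold change of -0.18 ± 0.054 (adjusted p = 0.0271) with LPS and -0.18 ± 0.054 (adjusted p = 0.0279) without passed in both. TFB2M, the other initiation factor, rose, with 0.19 ± 0.065 (adjusted p = 0.0457) and 0.27 ± 0.065 (adjusted p = 0.011). POLRMT, the polymerase, had 0.24 ± 0.10 (adjusted p = 0.0908) with LPS and 0.30 ± 0.10 (adjusted p = 0.0427) without, and MTERFD2, the older symbol of MTERF4, which acts in ribosome assembly, had -0.66 ± 0.23 (adjusted p = 0.0495) with LPS and -0.29 ± 0.23 (adjusted p = 0.384) without. MTERF, listed under that older symbol of MTERF1, binds within MT-TL1 at the end of the rRNA genes, and it did not pass, at 0.35 ± 0.32 (adjusted p = 0.461) with LPS and 0.85 ± 0.32 (adjusted p = 0.0733) without.

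Of 10 genes of RNA cleavage and modification 3 were higher and 0 lower with LPS, and 4 and 0 without. RPUSD4, a pseudouridine synthase that acts on the 16S rRNA, was at 22.9 FPKM in PINT shRNA1+LPS, against 10.9 FPKM in LPS, and at 23.3 FPKM in PINT shRNA1, against 9.14 FPKM in Control, with log2 fold changes of 1.04 ± 0.11 (adjusted p = 7.99e-05) and 1.303 ± 0.11 (adjusted p = 2.00e-05). ELAC2, which trims the 3′ ends of the tRNAs, had 0.17 ± 0.048 (adjusted p = 0.0224) with LPS and 0.16 ± 0.048 (adjusted p = 0.0303) without, and TRMT10C, a subunit of the nuclease that cuts their 5′ ends, had 0.045 ± 0.05 (adjusted p = 0.537) and 0.33 ± 0.05 (adjusted p = 7.65e-04). TRMU, which thiolates mitochondrial tRNAs, had 0.46 ± 0.066 (adjusted p = 5.12e-04) with LPS and 0.31 ± 0.066 (adjusted p = 0.00557) without. Of 14 genes of RNA stability, polyadenylation and decay 5 were higher and 0 lower in each comparison. Of all tested genes, 17.7% were higher and 11.6% lower with LPS, and 16.9% higher and 10.3% lower without. LRPPRC and its partner SLIRP, which bind and stabilise mitochondrial mRNAs, had 0.44 ± 0.065 (adjusted p = 5.85e-04) and 0.32 ± 0.084 (adjusted p = 0.0147) with LPS and 0.17 ± 0.065 (adjusted p = 0.071) and 0.32 ± 0.084 (adjusted p = 0.0171) without. PDE12, which removes poly(A) tails, had 0.57 ± 0.047 (adjusted p = 1.06e-05) and 0.52 ± 0.047 (adjusted p = 2.65e-05), and FASTKD1, of the FAST kinase family of RNA-binding proteins, 0.42 ± 0.065 (adjusted p = 7.80e-04) and 0.54 ± 0.065 (adjusted p = 1.95e-04). FASTKD5, of the same family, had 0.31 ± 0.054 (adjusted p = 0.00158) with LPS and 0.23 ± 0.054 (adjusted p = 0.00879) without.

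Of 10 genes of DNA replication and packaging 1 was higher and 1 lower with LPS, and 2 were higher and 1 lower without. POLG, the catalytic subunit of the mitochondrial DNA polymerase, had 0.37 ± 0.069 (adjusted p = 0.00224) and 0.53 ± 0.069 (adjusted p = 3.13e-04), and MGME1, a nuclease that trims replicating DNA ends, -0.32 ± 0.066 (adjusted p = 0.00436) and -0.37 ± 0.066 (adjusted p = 0.0022). SSBP1, which coats single-stranded mitochondrial DNA, had -0.022 ± 0.042 (adjusted p = 0.742) with LPS and 0.14 ± 0.042 (adjusted p = 0.0345) without, and POLG2, the accessory subunit of the polymerase, had 0.17 ± 0.081 (adjusted p = 0.138) with LPS and 0.14 ± 0.081 (adjusted p = 0.226) without. Of 6 biogenesis regulators tested 1 was higher and 0 lower with LPS, and 1 higher and 1 lower without. YY1, a transcription factor, had 0.12 ± 0.038 (adjusted p = 0.0395) with LPS and 0.26 ± 0.038 (adjusted p = 5.88e-04) without, and ESRRA, a nuclear receptor, had 0.014 ± 0.14 (adjusted p = 0.954) with LPS and -0.45 ± 0.14 (adjusted p = 0.0324) without. The coactivators PPARGC1B and PPRC1 passed in neither, PPARGC1B at -0.076 ± 0.077 (adjusted p = 0.506) with LPS and 0.14 ± 0.077 (adjusted p = 0.214) without and PPRC1 at 0.12 ± 0.051 (adjusted p = 0.103) with LPS and 0.088 ± 0.051 (adjusted p = 0.232) without. The 76 protein genes of the mitochondrial ribosome, the partners of MT-RNR1 and MT-RNR2, gave 5 higher and 8 lower with LPS and 6 higher and 4 lower without, and their median log2 fold changes were -0.010 and 0.014, against 0.053 and 0.057 over all tested genes. MRPL33 of the large subunit had the smallest p among them, with 0.80 ± 0.066 (adjusted p = 1.20e-05) and 0.89 ± 0.066 (adjusted p = 6.85e-06). MRPS12 of the small subunit had 0.43 ± 0.066 (adjusted p = 7.87e-04) with LPS and 0.31 ± 0.066 (adjusted p = 0.00593) without, MRPL15 of the large subunit -0.18 ± 0.059 (adjusted p = 0.0382) with LPS and -0.28 ± 0.059 (adjusted p = 0.00495) without, and MRPS33 of the small subunit -0.43 ± 0.078 (adjusted p = 0.00212) with LPS and 0.12 ± 0.078 (adjusted p = 0.311) without. In LPS against Control the lists gave 1 call, MRPS33, at 0.35 ± 0.078 (adjusted p = 0.0397), where 2.76% of all tested genes were called. In PINT shRNA1+LPS against PINT shRNA1 and in the interaction limma called 0, where 0.186% and 0.128% of all tested genes were called. At an unadjusted p under 0.05 were 18, 8 and 10 of the 125 genes in these comparisons in turn. The share of all tested genes at that unadjusted level is not given here.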

How the data were processed

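The values are FPKM per gene, which the authors computed, and 12 deposited columns were matched to groups by the labels. Tools in the submitters' processing notes are HISAT2 2.1.0, StringTie 1.3.4d and fastp, and the builds are GRCh37 and hg19, with no roles given. The labels list 15 samples, since each of the 3 PINT shRNA1 RNAs has 2, and 6 other columns were not used. Replicates are not stated to come from separate cultures, and p-values thus reflect the spread of these libraries alone, which may be technical. Absolute depth is unknown from FPKM, so no counting interval is given.

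A gene was tested where 3 or more libraries had 0.5 FPKM or more (17214 of 57905). The model (limma 3.58.1, R 4.3.3) took log2(FPKM + 0.5) in all 12 libraries with 1 mean per group, moderated variances along a trend on mean level, and adjusted two-sided p-values by Benjamini-Hochberg over the tested genes. Fold changes on this scale understate those of low genes. The step was tested on simulated data. Shares of FPKM were given exact permutation tests (Python 3.11.15, SciPy 1.17.1). GENCODE 29, of another build, supplied only gene order, strand, lengths, transcript sequences and the names and chromosomes of nuclear copies, and no coordinates.

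The members, the nuclear gene lists and the markers were chosen with earlier results of these data known. All 37 members are described, and of the nuclear lists the up to 3 genes with the smallest p of each list in each hairpin comparison and, in the other comparisons, those among them that were called, while MTERF, SLIRP and the ratios between genes were chosen after their values were seen. Alternatives were 4 scalings, pseudocounts of 0.1 and 1, testing every gene or only those reaching 1 FPKM, no trend, robust moderation, a term for replicate number, only the groups compared, and leaving out each library. Adding the nuclear copies with symbols of the form of MTND2P28 and leaving MT-ATP6 out of the share were chosen after the data were seen.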

Additional observations from a re-analysis of the deposited data

How the results depend on the processing

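Without the filter on low values 13 MT- genes were called in PINT shRNA1+LPS against LPS (7 higher, 6 lower) and 10 in PINT shRNA1 against Control (4 higher, 6 lower). That fit adds genes both to the adjustment and to the variance trend, and which of these ended calls was not tested. The other 12 alternatives that kept all libraries gave 15 to 23 and 13 to 21 calls, and leaving out each library 14 to 19 and 14 to 17. LPS against Control, PINT shRNA1+LPS against PINT shRNA1 and the interaction had 0 MT- genes called under each alternative run. Quantile normalization reversed, in PINT shRNA1 against Control, MT-ND1 (-0.075), MT-ND2 (0.038), MT-CO1 (0.023), MT-CO3 (0.0088), MT-ND4L (0.29) and MT-ND4 (0.13), and in PINT shRNA1+LPS against LPS, MT-ND1 (-0.15) and MT-ND4 (0.14). In Control these genes ranked among all genes from 2 for MT-CO1 to 10 for MT-ND1. Their values after this step follow rank alone, and what moved the ranks was not tested. MT-ATP6 in PINT shRNA1+LPS against LPS ranged from -0.20 (without PINT shRNA1+LPS replicate 3, a reversal) to 0.98 as each library was left out. Calls that stood under every alternative numbered 11 of 21 with LPS (MT-TV, MT-RNR2, MT-TL1, MT-TM, MT-TS1, MT-TD, MT-CO2, MT-TK, MT-ND5, MT-ND6 and MT-TP) and 8 of 18 without (MT-RNR1, MT-TV, MT-RNR2, MT-TL1, MT-TM, MT-CO2, MT-ND5 and MT-TP).

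With a replicate block, 20 MT- genes were called with LPS (11 higher, 9 lower) and 20 without (8 higher, 12 lower). Same-numbered libraries did not deviate together over genes (correlations of -0.035 to 0.057), which cannot exclude a shared culture or day that moves few genes. What the number marks is not stated, and for PINT shRNA1 it is that of the RNA.

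The share of FPKM in MT- genes differed, over the libraries left out in turn, by -1.50 to -0.874 points with LPS and by -2.30 to -1.75 points without, by -0.521 to 0.0313 points in LPS against Control and by 0.280 to 0.907 points in PINT shRNA1+LPS against PINT shRNA1. The positive value for LPS came without Control replicate 3. FPKM carries no counts, so depth sets no stated limit on a single value, and 3 libraries a group limit each exact test.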
